A study of Bos taurus with 30 samples.

Results

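The mature miRNAs of growth loci under genomic imprinting, other than the large DLK1-DIO3 cluster, were described in the arcuate nucleus of the hypothalamus (ARC) of bull calves. The rule takes names and no measured values, and it gives every miRNA of the table with the stem miR-335, miR-483, miR-675 or miR-296, on any arm of its precursor. Of the 1030 mature miRNAs in the table, 4 were found, which are miR-335, miR-483, miR-296-3p and miR-296-5p. miR-675, of the H19 gene, was not analysed here. In the RefSeq gene table of ARS-UCD2.0, MIR335 (gene ID 100313352) lies inside MEST and MIR483 (gene ID 100313053) lies inside IGF2. MIR296 (gene ID 100313259) lies between GNAS and NPEPL1 and overlaps the non-coding gene LOC107133071, with MIR6123 (gene ID 102466145) on its GNAS side.

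Small RNA libraries were made from the ARC of 30 Holstein-Friesian bull calves, with 1 library per calf. From 2 to 12 weeks of age, 15 calves were given a high plane of nutrition (HI), which was 1.5 kg of milk replacer in 10 litres per day with concentrate fed ad libitum. The other 15 were given a moderate plane of nutrition (MOD), which was 0.5 kg of milk replacer in 4 litres and 0.5 kg of concentrate per day. All calves shared breed, sex, tissue and age at sampling, and the question put to the data was whether the early diet changed miRNA levels in the ARC, which receives signals of metabolic status.

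Imprinted genes are expressed mainly from the copy inherited from a single parent, and many of them set the growth of the fetus and the young animal. IGF2 encodes a growth factor, MEST an enzyme-like membrane protein and GNAS the stimulatory G protein subunit that passes on signals from many hormone receptors. A miRNA that lies in an intron is cut from the transcript of its host gene, so that miR-335 and miR-483 can be made where MEST and IGF2 are transcribed, and miR-296 comes from the GNAS region. The values give no information on which parental copy was used.

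Between 6291369 and 21083248 reads per library fell on miRNAs, with 21 libraries at or below 8988043 (12 HI and 9 MOD) and 9 at or above 17193357 (3 HI and 6 MOD). Values were counts per 1000000 reads over scaled library sizes (CPM), and 3 reads were worth 0.138 to 0.558 CPM. All 11 listed neuronal miRNAs had reads in every library, and miR-124a, a miRNA of neurons, ranged from 825.6 to 9705 CPM. All 10 listed pituitary miRNAs had reads, although 2 of them had none in at least 1 library. Their summed level was 2289 to 7130 CPM in 21 libraries and 10003 to 100739 CPM in the other 9 (5 HI and 4 MOD). These 9 are called pituitary-marker-high below and are no group of the study. A further class, the 9 calves with the lowest animal codes (7 HI and 2 MOD), is one that an earlier examination of the same values had set apart, and it is used here as a description only.

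miR-335 was the most abundant of the imprinted-locus miRNAs and miR-483 was close to the limit of detection. Over the 30 libraries, miR-335 measured 1332 ± 215.8 CPM (SD), miR-296-3p 381.8 ± 61.1 CPM, miR-296-5p 18.8 ± 4.00 CPM and miR-483 0.753 ± 0.848 CPM. Within each library the order was the same. miR-335 exceeded miR-296-3p 3.49-fold, miR-296-3p exceeded miR-296-5p 20.3-fold and miR-296-5p exceeded miR-483 23.8-fold, each in 30 of 30 libraries. For each step the two-sided sign-flip permutation test gave p = 1e-05, the smallest that 100000 resamples can give. The order was taken from these same libraries, so this p adds nothing to the count of 30 of 30. By mean level they stood in places 76, 133, 318 and 516 of the table. The nearest miRNAs in level were miR-181d (1384 CPM) and miR-326 (1286 CPM) around miR-335, and miR-339b (383.0 CPM) and miR-361 (377.8 CPM) around miR-296-3p. Around miR-296-5p they were miR-10166-5p (18.9 CPM) and miR-17-3p (18.6 CPM), and around miR-483 they were miR-2285bt (0.786 CPM) and miR-2285bd (0.743 CPM).

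**Figure D1:**
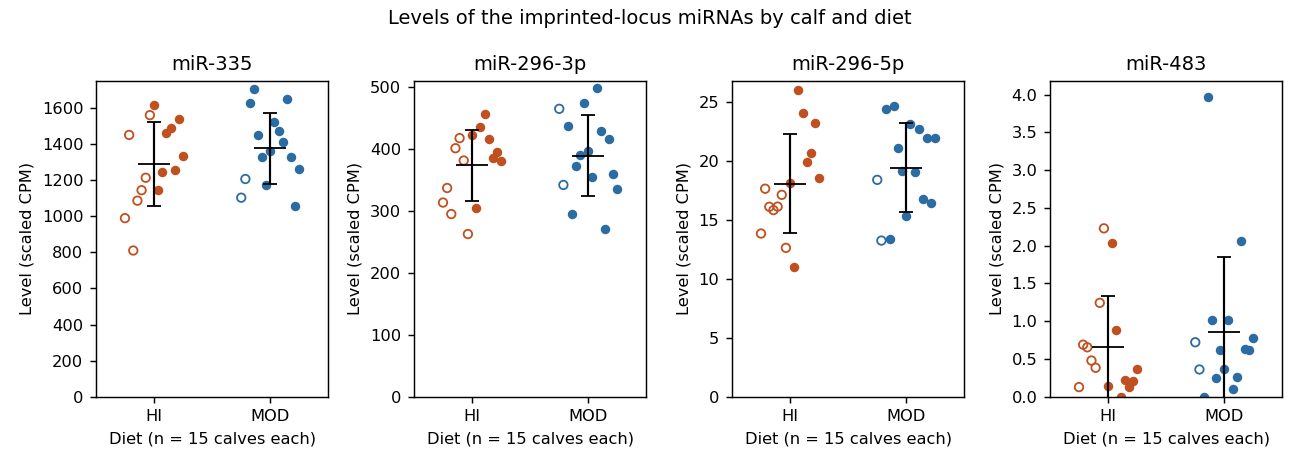
Levels of miR-335, miR-296-3p, miR-296-5p and miR-483 (scaled CPM, linear axis from 0) in each of 15 HI and 15 MOD calves. Each point is 1 library, open points are the 9 lowest animal codes, and horizontal and vertical lines give the mean and SD, cut at 0 for miR-483. The diets overlapped for all 4 miRNAs, and 1 MOD calf stood highest for miR-483, at 3.97 CPM.

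miR-335 and both arms of miR-296 had an SD below the median of the tested miRNAs. The SD between libraries on the log2 scale was 0.25 for miR-335 and 0.24 for miR-296-3p, and 19.3% and 18.7% of the 476 miRNAs that passed the filter on low reads had a smaller SD. For miR-296-5p the SD was 0.32, with 35.5% of tested miRNAs below it, and the median over all tested miRNAs was 0.37. Among tested miRNAs within 2-fold of the same level, 31.9%, 30.6% and 29.7% had a smaller SD than miR-335, miR-296-3p and miR-296-5p. The reads behind a median library, 11014 for miR-335, 3555 for miR-296-3p and 171 for miR-296-5p, give a counting error of 0.953%, 1.68% and 7.65%. The coefficients of variation between calves, which include preparation and animal, were 16.2%, 16.0% and 21.3%. miR-483 lay above that median. It had an SD of 0.99 on the log2 scale, a coefficient of variation of 112.5% and a counting error of 44.7% at its median of 5 reads.

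The 3 imprinted-locus miRNAs that passed the filter did not differ between HI and MOD calves beyond the spread between animals, and neither did miR-483 in its own test. All 4 means were lower in HI. The filter, edgeR's filterByExpr, asked for about 1.16 reads per 1000000 counted, without scaling, in at least 14 libraries. miR-335 and both arms of miR-296 met that level in 30 of 30 libraries. miR-483 met it in 4 and so was outside the main limma test, and with no filter limma gave it a log2 difference of -0.24 (SE 0.35, adjusted p = 0.949).

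miR-335, the MEST miRNA, averaged 1288 ± 231.3 CPM over the 15 HI calves (SD) and 1376 ± 197.1 CPM over the 15 MOD calves (SD). In HI it ranged from 809.5 CPM in calf A27823 through a median of 1255 to 1615 CPM in A37840. In MOD it ranged from 1058 CPM in A97821 through a median of 1362 to 1703 CPM in A41971. The diets overlapped along most of this range, with 6 of 15 HI calves above the MOD median, 2 HI calves below every MOD calf and 3 MOD calves above every HI calf. The log2 difference, HI minus MOD, was -0.10 (SE 0.09, 95% interval -0.29 to 0.08), with an adjusted p of 0.982 in limma after Benjamini-Hochberg adjustment over all tested miRNAs and p = 0.254 in a two-sided permutation test.

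miR-296-3p, the abundant arm of the GNAS-region precursor, averaged 374.1 ± 57.7 CPM (SD) over the HI calves and 389.5 ± 65.5 CPM (SD) over the MOD calves, with 15 in each. The HI calves ran from 263.0 CPM in A37824 through a median of 386.1 to 457.7 CPM in A77860, and the MOD calves from 271.5 CPM in A73759 through 390.9 to 498.6 CPM in A61965. The diets overlapped along most of the range, with 7 of 15 HI calves above the MOD median, 1 HI calf below every MOD calf and 3 MOD calves above every HI calf. The log2 difference was -0.06 (SE 0.09, 95% interval -0.24 to 0.13, limma adjusted p = 0.982, permutation p = 0.534).

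miR-296-5p, the other arm, averaged 18.1 ± 4.21 CPM (SD) over the HI calves and 19.5 ± 3.79 CPM (SD) over the MOD calves, with 15 in each. The HI calves ran from 11.02 CPM in A42931 through 17.7 to 26.0 CPM in A47858, and the MOD calves from 13.3 CPM in A21978 through 19.2 to 24.7 CPM in A47825. HI held both the highest calf and the 2 lowest, and 5 of 15 HI calves lay above the MOD median. The log2 difference was -0.11 (SE 0.12, 95% interval -0.35 to 0.12, limma adjusted p = 0.982, permutation p = 0.329).

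A call needed a fold change above 1.5 together with an adjusted p under 0.1, and 0 of all 476 tested miRNAs (0%) met it. At an unadjusted p under 0.05 there were 21 (4.41%), 8 higher in HI (1.68%) and 13 lower (2.73%), none of them miR-335, miR-296-3p or miR-296-5p. edgeR's quasi-likelihood test on the recovered reads also called 0, with 20 at an unadjusted p under 0.05, and DESeq2's Wald test called 1, miR-2419-3p (adjusted p = 0.0561), which is named after its values were seen. The differences of miR-335, miR-296-3p and miR-296-5p lay inside the bulk of the distribution, with 25.4%, 37.0% and 22.9% of tested miRNAs lower. The intervals of the differences reached down to -0.29 for miR-335, -0.24 for miR-296-3p and -0.35 for miR-296-5p, so a lower level in HI of that size was not distinguishable from none.

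**Figure D2:**
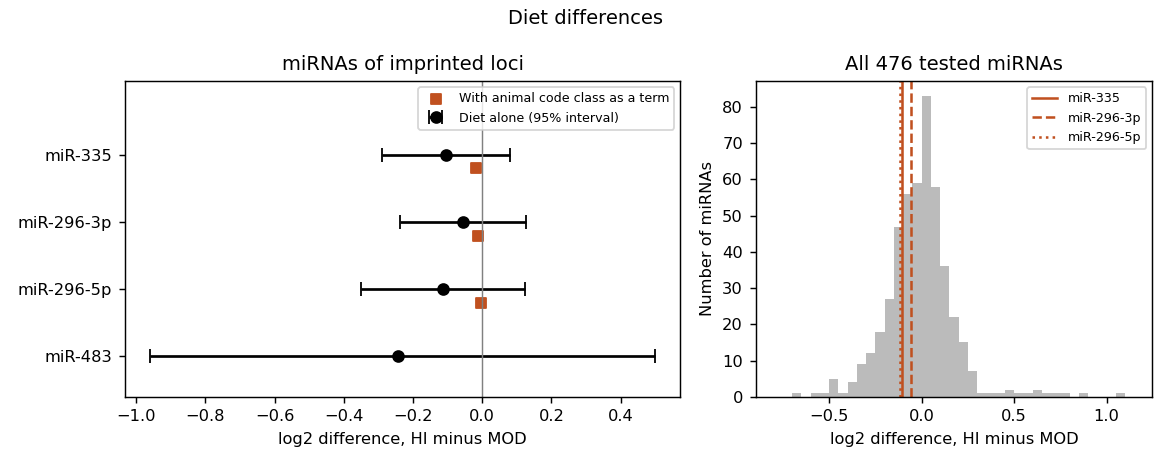
Left, log2 difference HI minus MOD for each imprinted-locus miRNA with its 95% interval (limma for the 3 tested, inverted permutation test for miR-483), and for the tested miRNAs the value with the class of animal codes as a term (squares). Right, the number of tested miRNAs by log2 difference, with lines for miR-335, miR-296-3p and miR-296-5p. All 4 intervals include 0, and the 3 lines fall between -0.11 and -0.06.

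Most calves with low animal codes were on HI, and these calves had lower miR-335 and miR-296-5p. With diet in the limma model, the 9 lowest codes were lower than the other 21 by a log2 value of -0.26 (SE 0.09) for miR-335, -0.33 (SE 0.12) for miR-296-5p and -0.13 (SE 0.10) for miR-296-3p. Among all tested miRNAs 18.3% were lower and 10.3% higher in this class at an adjusted p under 0.1, and since the class came from these values this difference is a description with no test. miR-335 measured 1173 ± 225.6 CPM in the 9 and 1400 ± 175.5 CPM in the 21. With the class as a term, the diet differences were -0.02 for miR-335, -0.01 for miR-296-3p and -0.0034 for miR-296-5p. Within the 9 lowest codes the diet differences of miR-335, miR-296-3p and miR-296-5p were 0.0015, -0.23 and -0.0080 (exact permutation p of 1, 0.306 and 1), where 7 HI against 2 MOD calves can reach no p below 0.0278. Within the 21 higher codes the diet difference of miR-335 was -0.02 (exact permutation p = 0.791, 8 HI against 13 MOD), that of miR-296-3p 0.06 (exact p = 0.581) and that of miR-296-5p near 0 (exact p = 0.990). What the codes mark is not given in the sources used here.

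Between the depth classes the 3 tested miRNAs differed by less than their SE. The shallow libraries differed from the deep ones by -0.02 for miR-335, 0.06 for miR-296-3p and -0.06 for miR-296-5p on the log2 scale, and 0 of 476 miRNAs passed an adjusted p of 0.1 for this term in limma. Within the 21 shallow libraries the diet differences were -0.07, -0.09 and -0.07 (exact permutation p of 0.564, 0.378 and 0.601). Within the 9 deep libraries they were -0.17, 0.0046 and -0.19, with exact permutation p of 0.262, 0.976 and 0.548, where 3 against 6 calves can reach no p below 0.0119.

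Both arms of the miR-296 precursor were read in every library, and the ratio between them does not depend on how libraries are scaled. The 3p arm took 93.8% to 96.5% of the reads of the pair, with a median of 95.4%. The ratio of 3p to 5p was 21.2 ± 3.30 (SD, n = 15) in HI, from 16.7 to 27.7 in A42931. In MOD it was 20.5 ± 4.25 (SD, n = 15), from 15.1 in A47825 to 26.1 in A61965. The diets overlapped along almost the whole range, and the log2 difference was 0.06 (95% interval -0.14 to 0.24, permutation p = 0.539). Of 42 precursors with both arms tested, 18 had more 3p than 5p, and 4 had a larger 3p excess than miR-296. The SD of its log2 ratio between libraries was 0.26, where the median over the 42 precursors was 0.31.

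miR-483, the IGF2 miRNA, was represented by 251 reads in all, 107 in HI and 144 in MOD. The HI calves had from 0 reads in A77860 to 37 in A42931 with a median of 4, and the MOD calves from 0 in A38765 to 33 in A73759 with a median of 5. In 12 of 30 libraries, 7 HI and 5 MOD, it had 3 reads or fewer. As levels, HI ran from 0 through a median of 0.384 to 2.23 CPM in A37824, and MOD from 0 through 0.621 to 3.97 CPM in A41971. Only A41971 lay outside the range of the other diet. Pooled over libraries the rate was 0.695 reads per 1000000 counted in HI (exact Poisson 95% interval 0.570 to 0.840) and 0.807 in MOD (0.681 to 0.951), intervals that overlap and cover counting error only. The mean log2 difference was -0.24 (permutation p = 0.507, 95% interval -0.96 to 0.50), so a fold change between 0.514 and 1.41 was not distinguishable from none in these libraries. By depth class, the pooled rate was 0.598 reads per 1000000 in the 21 shallow libraries (0.486 to 0.729) and 0.911 in the 9 deep ones (0.772 to 1.07), counting intervals that do not overlap. Between libraries the levels overlapped widely, at 0.677 ± 0.904 CPM (SD) in the shallow and 0.931 ± 0.714 CPM (SD) in the deep libraries. Within the 21 shallow libraries the diet difference was -0.35 (exact permutation p = 0.442) and within the 9 deep ones 0.36 (exact permutation p = 0.619). Its direction also differed between the code classes, at 0.25 in the 9 lowest codes (exact permutation p = 0.694) and -0.58 in the other 21 (exact permutation p = 0.241).

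The imprinted-locus miRNAs varied with the pituitary miRNAs of the libraries in different directions, and miR-483 did so most. In the 9 pituitary-marker-high libraries miR-483 measured 1.54 ± 1.18 CPM, from 0.208 to 3.97, and in the other 21 it measured 0.418 ± 0.298 CPM, from 0 to 1.02. Of the 7 libraries above 1 CPM on the deposited scale, 6 were pituitary-marker-high, as were all 4 libraries over the filter level, which is set on unscaled reads. Pooled, the rate was 1.35 reads per 1000000 in the 9 libraries (exact Poisson interval 1.14 to 1.58) and 0.466 in the 21 (0.381 to 0.565). These intervals cover counting error only and leave out the spread between libraries. Within both sets HI was lower than MOD, by log2 values of -0.36 (exact permutation p = 0.619) and -0.32 (permutation p = 0.300).

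Over the 30 libraries miR-335 and miR-296-3p moved apart along the same score, but not within the 21 with lower score. The score is the mean log2 level of the 8 pituitary miRNAs that passed the filter, each centred on its own mean, and it ran from -2.85 to 5.50. Per unit of score, with diet in the limma model, miR-335 rose by 0.037 on the log2 scale (SE 0.015, adjusted p = 0.0312) in the deposited scaling, and its slope was -0.0045 when libraries were scaled by their reads alone. miR-296-3p fell by 0.048 (SE 0.014, adjusted p = 0.00351) and miR-296-5p fell by 0.041 (SE 0.020, adjusted p = 0.0727), with slopes of -0.089 and -0.082 when scaled by reads alone. Of all tested miRNAs 63.2% passed an adjusted p of 0.1 for this slope, 28.6% upward and 34.7% downward, so that passing it sets none of them apart. Read against the slopes of all tested miRNAs, miR-335 exceeded 70.8%, miR-296-3p 31.5%, miR-296-5p 34.2% and miR-483 96.8%, and these places moved by less than 1 percentage point under the other scalings. Within the 21 libraries with lower score, rho to the score was 0.22 for miR-335, 0.42 for miR-296-3p and -0.07 for the ratio of miR-335 to miR-296-3p. Within the 9 these were 0.77, -0.60 and 0.70, and none passed an adjusted permutation p of 0.1.

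**Figure D3:**
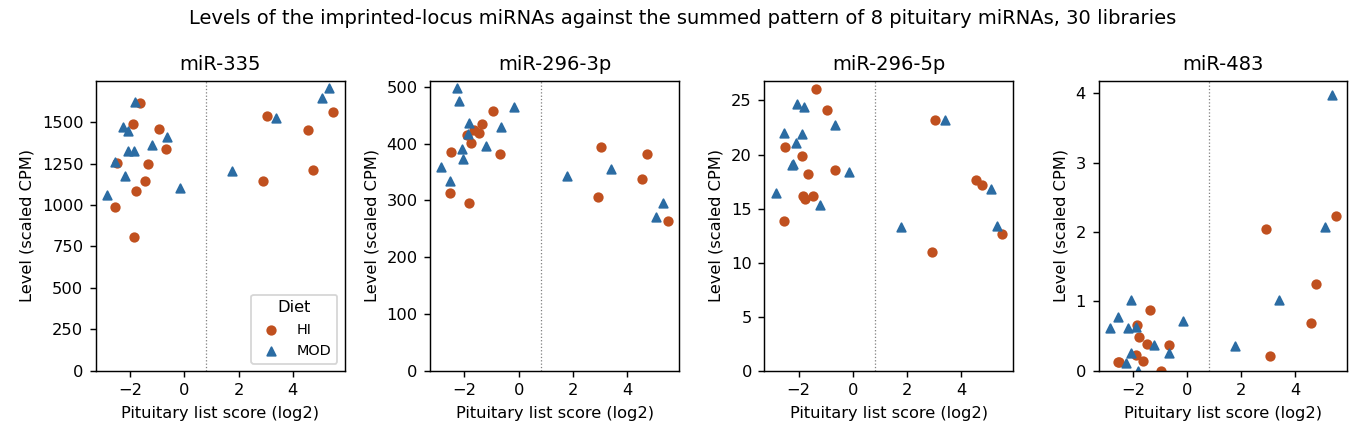
Level of each imprinted-locus miRNA (scaled CPM, linear axis from 0) against the pituitary list score (log2), 1 point per library, circles HI and triangles MOD, with a dotted line in the gap between -0.15 and 1.77 that separates 21 from 9 libraries. miR-483 exceeds 1.02 CPM only to the right of the line, and miR-296-3p reaches at most 395.0 CPM there.

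Within the 21 libraries the diet differences of miR-335, miR-296-3p and miR-296-5p were -0.11, -0.09 and -0.12 (permutation p of 0.335, 0.319 and 0.283). Within the 9 they were -0.14, 0.08 and -0.04 (exact permutation p of 0.349, 0.579 and 0.897), so that miR-296-3p took the other direction there. The ratio of miR-335 to miR-296-3p, which needs no scaling, was 3.19 ± 0.442 in the 21 libraries, from 2.37 to 3.89, and 4.52 ± 1.11 in the 9, from 3.17 to 6.07 in A73759. Of the 9, 6 lay above every one of the 21. miR-296-3p measured 327.5 ± 46.7 CPM in the 9 and 405.1 ± 51.5 CPM in the 21, and miR-335 measured 1442 ± 205.1 and 1285 ± 207.1 CPM. Other marker lists moved with the same split. The summed level of 5 smooth muscle and pericyte miRNAs was 34772 to 185764 CPM in the 21 and 44623 to 316635 CPM in the 9, and that of the 11 neuronal miRNAs was 59859 to 99225 and 23099 to 70052 CPM. The part of either list in the difference between the 9 and the 21 was not tested. In bulk tissue, a lower share of a cell type and a lower level per cell give the same reading.

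Within the split the imprinted-locus miRNAs were related to the cell type lists unevenly. Of 110 relations between the 4 miRNAs or the miR-335 to miR-296-3p ratio and 11 lists, each within the 21 or the 9 libraries, none passed an adjusted p of 0.1 by Spearman's rho, and the smallest was 0.112. By Pearson's r 13 passed, 4 for miR-335, 5 for miR-296-3p and 4 for miR-483. miR-335 in the 21 libraries was lower where the oligodendrocyte miRNAs were higher (r = -0.77, adjusted permutation p = 0.0077, rho = -0.66, and r = -0.58 without the 2 farthest libraries). It was higher where the neuronal miRNAs were higher (r = 0.70, adjusted permutation p = 0.0231, rho = 0.52, and r = 0.46 without the 2 farthest). The neuronal list did not move as a whole, since miR-9-5p, an abundant member of it, had the most opposite pattern to miR-335 of all tested miRNAs, with rho of -0.81 over 30 libraries and -0.80 in the 21. In the 9 libraries the corresponding r for miR-335 were -0.55 and -0.47, with exact permutation p of 0.126 and 0.207. miR-296-3p had like relations in the 21 to the oligodendrocyte list (r = -0.70, and -0.50 without the 2 farthest) and the neuronal list (r = 0.65, and 0.32 without the 2 farthest), both with an adjusted permutation p of 0.0231. In the 9 these were 0.13 and 0.55 (exact permutation p of 0.748 and 0.122). The DLK1-DIO3 list gave r = 0.66 with miR-335 and r = 0.64 with miR-296-3p in the 21 (adjusted permutation p = 0.0231 for both), which were 0.29 and 0.28 without the 2 farthest, and in the 9 they were -0.18 and 0.65 (exact permutation p of 0.628 and 0.0622). To the endothelial list, which is both arms of miR-126, miR-335 had r = -0.67 in the 21 (adjusted permutation p = 0.0231, rho = -0.59, and r = -0.60 without the 2 farthest) but r = 0.02 in the 9 (exact permutation p = 0.958). miR-296-3p was lower where it was higher, with r = -0.60 in the 21 libraries and r = -0.87 in the 9 (adjusted permutation p of 0.0425 and, exact, 0.0231). Its rho was -0.58 and -0.77, and r was -0.63 and -0.81 without the 2 farthest libraries of each set. miR-483 was higher where it was higher, with r = 0.59 in the 21 and r = 0.84 in the 9 (adjusted permutation p of 0.0459 and, exact, 0.0443). Its rho was 0.52 and 0.80, and r was 0.46 and 0.76 without the 2 farthest. With the smooth muscle and pericyte list, miR-483 had r = 0.89 in the 9 (adjusted exact permutation p = 0.0231, rho = 0.88, and r = 0.64 without the 2 farthest) and r = 0.54 in the 21 (adjusted permutation p = 0.101). With the pituitary list it had r = 0.69 in the 9 (adjusted exact permutation p = 0.194) and r = -0.0048 in the 21. With the leukocyte list it had r = 0.57 in the 21 (adjusted permutation p = 0.0621, rho = 0.63, and r = 0.77 without the 2 farthest). In the 21 libraries miR-483 had a median of 4 reads, with 10 libraries at or under 3 reads, so its relations there rest on few reads.

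The 2 arms of miR-296 varied together, and miR-296-3p and miR-483 in opposite directions. Between the arms, rho over 30 libraries was 0.53 and r 0.60 (adjusted permutation p of 0.00873 and 0.00171 over 6 pairs), with r = 0.55 without the 2 farthest libraries. Between miR-296-3p and miR-483, rho was -0.56 and r -0.64 (adjusted permutation p of 0.00873 and 0.00084), with r = -0.53 without the 2 farthest. Within the 21 libraries with lower pituitary score neither passed, with rho of 0.31 (permutation p = 0.176) for the arms and -0.27 (permutation p = 0.232) for miR-296-3p and miR-483. Within the 9 they were 0.68 (exact permutation p = 0.0503) and -0.80 (exact permutation p = 0.0138). No relation of miR-335 to the others passed over 30 libraries, with rho of -0.01 to miR-296-3p, 0.30 to miR-296-5p and -0.02 to miR-483 (adjusted permutation p of 0.945, 0.193 and 0.945). Within the 21 libraries these were 0.42, 0.51 and -0.48, with unadjusted permutation p of 0.0616, 0.0189 and 0.0307, and within the 9 they were -0.43, 0.20 and 0.52, with exact permutation p of 0.2499, 0.613 and 0.162. Between miR-296-5p and miR-483 over 30 libraries, r was -0.44 (adjusted permutation p = 0.0316) and rho -0.28 (adjusted permutation p = 0.193), with r = -0.27 without the 2 farthest.

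The tested miRNAs most like each imprinted-locus miRNA were then found by rho over the 30 libraries. For miR-335 they were miR-30b-5p (rho 0.84, r 0.85, and r = 0.80 without the 2 farthest), miR-2320-5p (rho 0.79) and miR-376a (rho 0.79), each with an adjusted permutation p of 0.000594 over 475 relations. For miR-296-3p they were miR-543 (rho 0.83, r 0.86, and r = 0.81 without the 2 farthest), miR-3957 (rho 0.82) and miR-744 (rho 0.79), each with an adjusted permutation p of 0.000297. For miR-296-5p they were miR-487b (rho 0.77, r 0.71, and r = 0.65 without the 2 farthest), miR-877 (rho 0.74) and miR-1185 (rho 0.73), with adjusted permutation p of 0.00158, 0.00211 and 0.00211. Many miRNAs shared such relations, since 111, 237 and 147 of 475 passed an adjusted p of 0.1 for miR-335, miR-296-3p and miR-296-5p.

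Values within the library classes are given as a description, since these miRNAs were picked on the same libraries. The relation of miR-335 to miR-30b-5p had rho between 0.74 and 0.95 in the 6 classes by depth, animal code and pituitary score, and that of miR-296-3p to miR-543 between 0.68 and 0.93. The relation of miR-296-5p to miR-487b was 0.66 in the 21 libraries with lower pituitary score but 0.20 in the 9 with the lowest codes. For miR-483, which did not pass the filter, the highest rho were to miR-16b (0.75), miR-15a (0.75) and miR-199a-3p (0.74), named after their values were seen, and 224 of 476 relations of miR-483 passed an adjusted p of 0.1. The first of these was 0.57 in the 21 libraries with lower pituitary score and 0.93 in the 9.

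**Figure D4:**
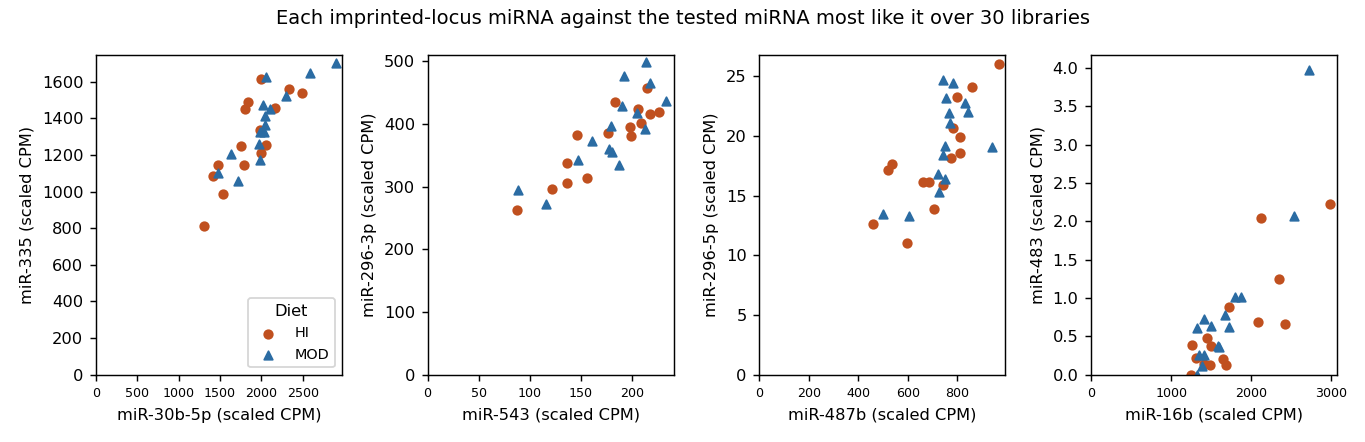
Level of each imprinted-locus miRNA against that of the tested miRNA with the highest rho to it (scaled CPM on both axes from 0), 1 point per library, circles HI and triangles MOD. miR-30b-5p rises with miR-335, miR-543 with miR-296-3p and miR-487b with miR-296-5p in both diets, and miR-483 spreads upward with miR-16b in a few libraries.

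Several of these miRNAs belong to the DLK1-DIO3 region, the largest imprinted miRNA cluster, which is expressed in brain and endocrine tissue. Of the 9 most alike, 4 (44.4%) were on its list, which are miR-376a, miR-543, miR-487b and miR-1185, while the list made up 55 of 476 tested miRNAs (11.6%). MIR3957 is not on the list but lies between MIR379 and MIR410 of the cluster in RefSeq. Against the 55 cluster miRNAs, rho was positive for 45 with miR-296-3p (81.8%, all tested 54.1%), with a median of 0.47 (all tested 0.08). With miR-296-5p it was positive for 49 (89.1%, all tested 54.3%), with a median of 0.32 (all tested 0.06). With miR-335 it was positive for 29 (52.7%, near the 50.1% of all tested), with a median near 0. With miR-483 it was positive for 8 (14.5%, all tested 45.4%), with a median of -0.44 (all tested -0.06). Within the 21 libraries with lower pituitary score the medians were 0.29 for miR-296-3p, 0.15 for miR-296-5p, 0.34 for miR-335 and -0.19 for miR-483. Over all tested miRNAs the corresponding medians there were 0.08, 0.05, 0.04 and -0.02. These medians are descriptions over miRNAs that share libraries and a cluster.

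None of the cluster's miRNAs was called for diet either. Of its 55 tested miRNAs 22 were higher and 33 lower in HI, where of all 476 tested miRNAs 235 were higher and 241 lower. The median log2 difference was -0.04 for the cluster and -0.0022 for all tested miRNAs. Single differences in the cluster ran from -0.39 to 0.50 and the smallest adjusted p in limma was 0.912. In the same fit 1 of the 55 had an unadjusted p under 0.05, where 21 of all 476 (4.41%) did. The 3 most abundant, miR-127, miR-411a and miR-410, had log2 differences of 0.11, 0.05 and 0.04. The neighbour of miR-296, miR-6123, was named for its position. It measured 119.0 ± 24.8 CPM in HI and 113.5 ± 21.7 CPM in MOD, with a log2 difference of 0.06 (SE 0.12, limma adjusted p = 0.982).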

How the data were processed

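The deposited signal values, 1 per calf and mature miRNA, are decimals in the form of CPM over TMM-scaled library sizes. Per the study's methods, the authors trimmed reads, kept 15 to 28 bases, discarded rRNA, tRNA, snRNA and snoRNA reads and quantified the remainder against the known miRNAs of cattle (miRDeep2, Bowtie). The submitters' processing notes name ARS-UCD1.2, FastQC 0.11.8, cutadapt 2.6, R 3.4 and edgeR 3.5. Since the signal values were no counts, the study's edgeR design was replaced by limma (lmFit, eBayes with trend) on log2(CPM + 0.25), so fold changes of low miRNAs are understated. The pseudocount was worth 2.16 reads at the median depth of 8635350.

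Whole reads were recovered from the smallest step in each library. Of values under 200 reads, 94.5% to 97.9% came out within 0.05 of a whole read, and rounded reads served the filter and the alternative tests with edgeR and DESeq2. Of 1030 miRNAs, 863 had a read and 476 passed the filter.

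Diets came from the sample labels, and each library is a separate calf. Single values were tested with two-sided permutation tests (100000 resamples), or exact ones within small classes. Named were the 4 miRNAs, their neighbours in level, the 3 tested miRNAs most like each by rho, the 3 most abundant DLK1-DIO3 miRNAs and marker lists. The members and lists were chosen with earlier results of these data known. The code was tested on simulated data. Alternatives covered scaling, pseudocount, filter, test, depth, codes, pituitary score and leaving out each calf. RefSeq coordinates are of another build and none are given. Software was R 4.3.3, limma 3.58.1, edgeR 4.0.16, DESeq2 1.42.0, Python 3.11.15 and scipy 1.17.1.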

Additional observations from a re-analysis of the deposited data

How the results depend on the processing

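No paired analysis was possible because every calf received a single diet and the labels give HI and MOD calves no shared numbers. Over all libraries or the 21 with lower pituitary score, each of the 4 miRNAs kept the direction of its diet difference and stayed short of a call under 11 alternatives for miR-335 (log2 differences -0.15 to -0.02), miR-296-3p (-0.10 to -0.01) and miR-296-5p (-0.16 to -0.0034), and under 5 for miR-483 (-0.32 to -0.13), which were chosen after seeing the data, as was that restriction to 21 libraries. Within classes of libraries directions did turn, for miR-296-3p in the 9 pituitary-marker-high libraries (0.08) and the 21 higher codes (0.06), and for miR-483 in the 9 deep libraries (0.36) and the 9 lowest codes (0.25). Values of miR-335 in the 9 lowest codes (0.0015) and of miR-296-3p in the deep libraries (0.0046) were near 0. Leaving out each calf in turn gave -0.13 to -0.06, -0.09 to -0.02, -0.15 to -0.07 and -0.37 to -0.08. The diet difference in the arm ratio of miR-296 stayed between 0.05 and 0.06 under both pseudocounts and between 0.03 and 0.09 without 1 calf. Within classes it turned to -0.03 in the shallow libraries and -0.22 in the 9 lowest codes. It was 0.19 in the deep libraries, 0.06 in the higher codes, and 0.04 and 0.12 in the libraries with lower and higher pituitary score. The number of miRNAs called for diet was 0 except with DESeq2, where it was 1, and over the fits without 1 calf it was 0 to 1, with 1 without A77860 and 1 without A97854. The miRNA called was miR-2419-3p each time, which is none of the imprinted-locus miRNAs and is named after its values were seen. The slope of miR-335 on the pituitary score, added after seeing the data, turned from 0.04 to -0.0045 with scaling by library size only, where the median slope of all tested miRNAs moved from -0.0061 to -0.05, and the slopes of miR-296-3p and miR-296-5p moved from -0.048 to -0.089 and from -0.041 to -0.082. The median of miR-483, 5 reads, lies just above the floor of 3, and diet differences inside its interval were not distinguishable from 0. The part of depth in the width of that interval was not tested.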
